A study of Mus musculus with 6 samples.

Results

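Aqp9, Slc27a6 and Atp8a2 are 3 genes for proteins that move small solutes or lipids across membranes, followed here among 38216 gene symbols measured in CD4+ T cells. They were chosen because their RNA was lower in the ACT IL21 pool than in the ACT pool, so that difference is a property of the choice and is described without a test. All 6 libraries came from spleens of C57BL/6 mice on postnatal day 28 that carried the IL21-VFP reporter, in which cells transcribing Il21 fluoresce with VFP. CD4+ cells were sorted by VFP and by surface ICOS, which T cells display in larger amounts once activated. N is the pool negative for both, ACT the pool negative for VFP and positive for ICOS, and ACT IL21 the pool positive for both, with 2 libraries each. Every pool carried the reporter, so no library represents cells without it. Each library is a sorted pool of cells. The labels do not state whether duplicate libraries had different source mice, so p-values may reflect technical spread alone.

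Aqp9 encodes an aquaglyceroporin, a channel for water, glycerol, urea and other small uncharged solutes, known from liver and leukocytes. In mouse memory CD8 T cells it takes up the glycerol from which triglycerides are made. Slc27a6 encodes fatty acid transport protein 6, of a family whose members help long-chain fatty acids enter cells, several by joining them to coenzyme A, and it is best known from heart muscle. Atp8a2 encodes a P4-ATPase, a flippase that uses ATP to move phosphatidylserine from the outer to the cytoplasmic leaflet of a membrane together with a CDC50 subunit, and is best known from neurons and photoreceptors.

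The values are TPM, transcript abundance corrected for length and scaled to 1000000 per library, so levels can be compared between genes. Depth is unknown, and a value of 0 means only that the gene is listed at 0. Between 12095 and 12396 genes per library were at 1 TPM or more. Spearman correlations across genes were 0.941 to 0.971 within pools and 0.904 to 0.931 between pools. Icos was at 31.92 and 35.67 TPM in N, 241.35 and 254.1 TPM in ACT and 184.97 and 226.73 TPM in ACT IL21. For Il21 the libraries of ACT IL21 showed 44.48 and 51.87 TPM, those of ACT 0 and 1.26 TPM, and those of N 0. Both genes match the sort and are no finding.

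Aqp9 (ENSMUSG00000032204.13) lies on chromosome 9, 71110659 to 71168682, minus strand (GRCm38, GENCODE), a protein-coding gene of 58.0 kb. RefSeq (GRCm38.p6) gives Aqp9 2 start sites, and it is the only 1 of the 3 genes with a promoter entry in the table used. The 122 bases before the upstream site and the 250 before the downstream site are shown because Aqp9 RNA, at its highest in ACT, starts beside windows like these. They are read 5′ to 3′ on the minus strand and kept clear of annotated exons. Capitals mark a match to TGANTCA, the AP-1 motif, and to TCAAAG, the reverse complement of the TCF/LEF motif CTTTGA.
Aqp9 upstream start, chr9:71163290-71163411: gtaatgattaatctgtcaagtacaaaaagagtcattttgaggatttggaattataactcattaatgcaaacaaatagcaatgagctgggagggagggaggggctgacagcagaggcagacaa
Aqp9 downstream start, chr9:71162634-71162883: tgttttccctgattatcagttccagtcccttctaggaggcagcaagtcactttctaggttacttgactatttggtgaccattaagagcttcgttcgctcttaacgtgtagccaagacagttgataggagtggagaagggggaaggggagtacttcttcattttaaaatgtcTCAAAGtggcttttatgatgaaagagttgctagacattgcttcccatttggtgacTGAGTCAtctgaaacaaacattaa

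The 6 motifs searched, on both strands, were short core sequences of factors active in T cells. They were TGANTCA for AP-1 and CTTTGA for TCF/LEF proteins. For GATA proteins the letters were AGATAA. For T-box proteins the core AGGTGT was used. For ROR receptors the half-site was AGGTCA. The E-box was spelled CANNTG. The upstream window held none of them. The downstream window held 1 AP-1 match, 1 TCF/LEF match and 3 E-box matches, of which the E-boxes are not capitalised and 1 shares 2 bases with the AP-1 match. Of 32851 promoter windows of the same length, 6.75% held the AP-1 motif, 13.8% the TCF/LEF motif and 66.2% an E-box. The motifs without a match were in 9.99% (GATA), 11.8% (T-box) and 14% (ROR) of those windows. A match describes the letters in the window and is neither a binding site nor a cause of the levels.

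Aqp9 stood at 0.68 and 0.92 TPM in N, at 38.27 and 22.41 TPM in ACT, and in ACT IL21 at 0 and 0.46 TPM. Both ACT libraries were far above the other 4, the lower of them 24.4 times the highest of the others. The ACT minus N difference was 4.08 ± 0.46 (SE) on the log2(TPM + 1) scale, and the ACT IL21 minus ACT difference was -4.65 ± 0.46. N and ACT IL21 were both below 1 TPM, with no overlap and N the higher, at a difference of -0.57 ± 0.46 for ACT IL21 minus N. Such an order, both ACT IL21 libraries below both N libraries, was found in 19.9% of the 13311 genes tested. The 2 ACT libraries themselves differed 1.71-fold.

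Slc27a6 (ENSMUSG00000024600.8; chromosome 18, 58556257 to 58612773, plus strand, protein-coding, 56.5 kb) was at 0.45 and 0 TPM in N, at 18.82 and 14.76 TPM in ACT, and in ACT IL21 at 0.1 and 0 TPM. Here too ACT was high and the other 4 libraries were near or at 0, with the lower ACT library 32.8 times the highest of the others. On the log2(TPM + 1) scale the ACT minus N difference was 3.88 ± 0.45 (SE) and the ACT IL21 minus ACT difference -4.07 ± 0.45. N and ACT IL21 overlapped, and their order cannot be read from these libraries (ACT IL21 minus N, -0.2 ± 0.45). Without N replicate 1 that last difference was 0.07.

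Atp8a2 (ENSMUSG00000021983.16; chromosome 14, 59638540 to 60197179, minus strand, protein-coding, 558.6 kb) was measured at 1.37 and 1.17 TPM in N, at 50.39 and 46.68 TPM in ACT, and in ACT IL21 at 2.35 and 2.12 TPM. It was the most abundant of the 3 genes in every library and the only 1 at 1 TPM or more in all 6. The lower ACT library was 19.9 times the highest of the others. The ACT minus N difference was 4.45 ± 0.36 (SE) and the ACT IL21 minus ACT difference -3.94 ± 0.36 on the log2(TPM + 1) scale. ACT IL21 lay above N without overlap, the opposite order to Aqp9, at 0.51 ± 0.36 for ACT IL21 minus N. Both ACT IL21 libraries were above both N libraries in 31.5% of genes tested.

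All 3 genes therefore had their highest level in ACT, with both ACT libraries above the other 4. That order was shared by 9.8% of the 13311 genes tested, which were those at 1 TPM or more in at least 2 libraries. Both ACT libraries lay above both N libraries in 25.2% of genes tested. Both ACT IL21 libraries lay below both ACT libraries in 17.3% of genes tested, and this contrast chose the 3 genes, so nothing is read from it. Aqp9 and Slc27a6 reached 1 TPM in the ACT libraries alone, so they entered the tested set through the pool in which they are high. The comparisons with N use the same ACT or ACT IL21 libraries that entered the choice, so the differences of the 3 genes from N are also given without a test. In bulk libraries fewer cells with a transcript and less RNA per cell cannot be told apart.

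**Figure D1:**
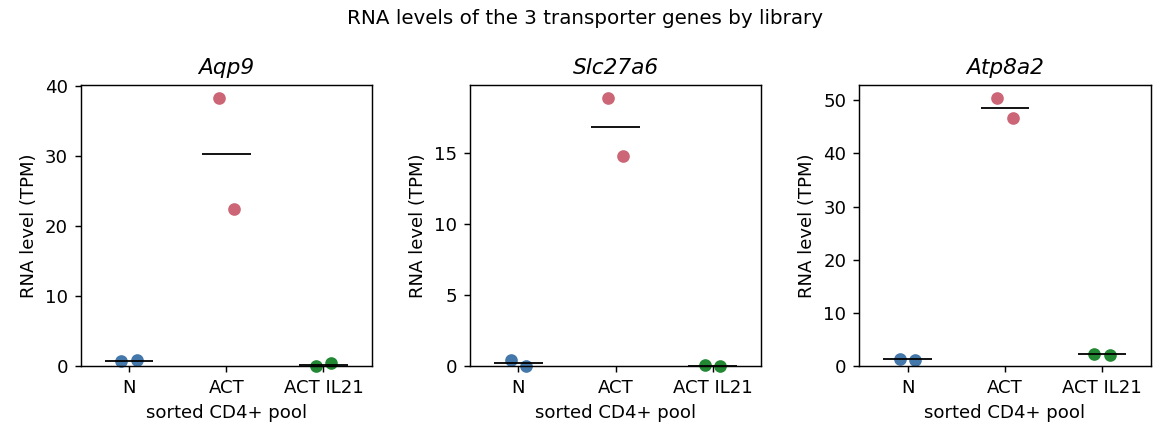
RNA level in TPM (linear axis from 0) of Aqp9, Slc27a6 and Atp8a2 in the N, ACT and ACT IL21 pools; points are the 2 libraries of a pool and the bar is their mean. Both ACT libraries stand above the other 4 in each panel, and the Aqp9 points in ACT, 38.27 and 22.41 TPM, lie further apart than those of Atp8a2, 50.39 and 46.68 TPM.

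The genes were of moderate abundance where they were high. Their ACT means of 30.34 ± 11.2 TPM for Aqp9, 16.79 ± 2.87 TPM for Slc27a6 and 48.53 ± 2.62 TPM for Atp8a2 (SD, n = 2) exceeded the ACT means of 66.2%, 52.7% and 76.6% of genes tested. Agreement between the ACT libraries differed among them. Among 5225 genes with an ACT mean of 10 to 60 TPM, the median difference between the 2 ACT libraries was 0.37 on the log2(TPM + 1) scale. Atp8a2 differed by 0.11, Slc27a6 by 0.33 and Aqp9 by 0.75, the last a larger gap than that of 80.5% of those genes. All 3 were higher in ACT replicate 1.

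In the order of ACT IL21 minus ACT differences from the most negative, Aqp9 was at position 2, Slc27a6 at 11 and Atp8a2 at 14 of 13311. The choice had no numerical threshold, so the genes beside them are given as a description. Kctd12, next to Slc27a6, had a difference of -4.08. Atp8a2 lay between Trav11, a T cell receptor alpha segment, at -3.97, and Klrk1, which encodes the activating receptor NKG2D, at -3.84. Trav11 had 511.36 and 358.23 TPM in ACT against 39.05 and 17.69 TPM in ACT IL21, and receptor segments resemble each other enough for reads to be split among them.

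**Figure D2:**
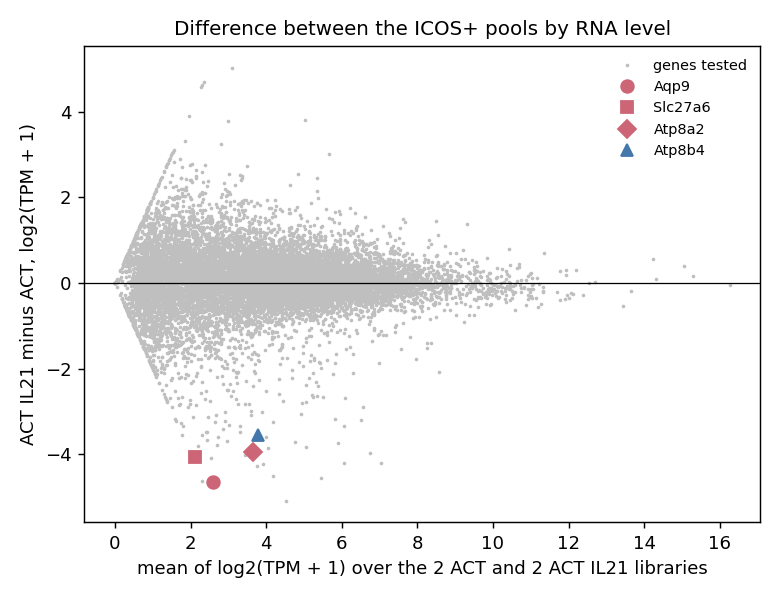
ACT IL21 minus ACT difference on the log2(TPM + 1) scale against the mean level over those 4 libraries; each grey point is 1 of 13311 genes tested, with Aqp9, Slc27a6, Atp8a2 and the related flippase gene Atp8b4 marked. The 3 chosen genes lie at -4.65, -4.07 and -3.94 and Atp8b4 at -3.54, near the lower edge of the cloud, where the choice placed the first 3.

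Other aquaporin genes were at 4.1 TPM at most. Aqp9 made up 88.4% of the summed TPM of 12 aquaporin genes in each ACT library, against 12.9% and 18.6% in N and 0% and 8.03% in ACT IL21. The summed aquaporin level was 4.9 and 5.3 TPM in N, 43.3 and 25.3 TPM in ACT, and 6.6 and 5.7 TPM in ACT IL21. Of the 11 others, 6 were listed at 0 in every library and 2 were abundant enough to test. Aqp3, also a glycerol channel, was at 2.33 and 1.79 TPM in N, 4.1 and 1.9 TPM in ACT, and 3.38 and 3.83 TPM in ACT IL21, with overlap between ACT and both other pools. Aqp11, an intracellular family member, was at 1.41 and 1.46 TPM in N and between 0 and 0.44 TPM in the other libraries. Neither passed limma's test in any comparison, with Benjamini-Hochberg adjusted p of 0.21 or more.

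Slc27a6 had the highest level of its family in both ACT libraries, at 58.4% and 90.3% of the summed TPM of 6 Slc27 genes, against 4.12% and 0% in N and 0.727% and 0% in ACT IL21. Slc27a1, a fatty acid transporter of muscle and fat, was at 7.33 and 0.86 TPM in ACT against 2.55 and 1.44 TPM in N. Slc27a4, which is widely expressed, was at 3.9 and 0.73 TPM in ACT against 3.31 and 3.81 TPM in N. These paralogs varied more between ACT libraries than Slc27a6 did, and none passed the test in any comparison.

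The wider list of fatty acid uptake and activation held 20 other genes, of which 9 were tested. Acsbg1, an acyl-CoA synthetase gene, was the 1 gene of the list that rose in ACT against N, and none fell. Of all genes tested, 4.15% rose and 1.43% fell in that comparison. Acsbg1 was at 1.93 and 1.61 TPM in N, 12.14 and 10.27 TPM in ACT, and 5.49 and 5.27 TPM in ACT IL21. The 3 pools did not overlap, in the order N, ACT IL21, ACT. Pair by pair such orders are common. ACT lay above N without overlap in 25.2% of genes tested, ACT IL21 above N in 31.5% and ACT IL21 below ACT in 17.3%. By limma Acsbg1 rose in ACT against N by 2.14 ± 0.38 (SE) on the log2(TPM + 1) scale (adjusted p = 0.0162), but it did not pass in ACT IL21 against N (1.21, adjusted p = 0.129) or against ACT (-0.93, adjusted p = 0.3). Its call in ACT ended without N replicate 1 (adjusted p = 0.114), N replicate 2 (0.145) or ACT replicate 1 (0.0595), with no filter on low values (0.0563) and with the N and ACT libraries alone (0.0518). In ACT IL21 against N Acsbg1 passed without an intensity trend (adjusted p = 0.0496). Acsl5, the most abundant gene of the list and a synthetase of the same reaction, stayed between 55.02 and 67 TPM in all 6 libraries and did not pass. Cd36, a fatty acid receptor gene, was at 0.33 TPM at most.

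Among the flippases a second gene separated the ICOS+ pools, with another pattern. Atp8b4, a P4-ATPase gene, had 46.82 and 43.9 TPM in N, 59.4 and 35.88 TPM in ACT, and 4.89 and 1.79 TPM in ACT IL21. N and ACT overlapped and both ACT IL21 libraries were far below them. By limma Atp8b4 fell by 3.51 ± 0.4 (SE) on the log2(TPM + 1) scale in ACT IL21 against N (adjusted p = 0.00315) and by 3.54 ± 0.4 against ACT (adjusted p = 0.00666). The ACT minus N value was 0.03 (adjusted p = 0.985). Both falls passed under each of 15 alternatives, with adjusted p up to 0.032 against N and 0.0481 against ACT. Atp8b4 was thus low in 1 pool, whereas Atp8a2 was low in both N and ACT IL21.

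No other flippase gene passed in any comparison with the settings used for the reported values. Atp8a1, the closest relative of Atp8a2 and also a phosphatidylserine flippase, was between 32.79 and 40.85 TPM in all 6 libraries. Tmem30a, which encodes the CDC50A subunit that Atp8a2 protein needs, was between 103.01 and 122.44 TPM and did not pass either. Atp11b, the most abundant flippase gene, was at 473.71 and 565.19 TPM in N, 274.81 and 370.49 TPM in ACT, and 321.22 and 363.16 TPM in ACT IL21. For Atp11b ACT IL21 lay below N without overlap, as in 19.9% of all genes tested. By limma the Atp11b differences from N missed the threshold (-0.7, adjusted p = 0.0738 for ACT, and -0.6, adjusted p = 0.122 for ACT IL21). The ACT difference passed under 3 alternatives, among them ACT replicate 2 left out (-0.91, adjusted p = 0.0343). Because of such genes Atp8a2 was a small part of its family even where high, at 8.4% and 6.25% of the summed TPM of 15 P4-ATPase genes in ACT. Its shares were 0.179% and 0.132% in N and 0.383% and 0.33% in ACT IL21.

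Scramblases let lipids move both ways and so undo what flippases do. Plscr1, which encodes a phospholipid scramblase family member that interferon induces, was at 0.41 and 1.12 TPM in N, 4.97 and 22.09 TPM in ACT, and 24.62 and 21.98 TPM in ACT IL21. The 2 ACT libraries differed by more than any other pair of a pool for this gene. Plscr1 rose by limma in ACT IL21 against N (3.81 ± 0.62 SE, adjusted p = 0.0128) and in ACT against N (2.76 ± 0.62, adjusted p = 0.0433). The call in ACT ended under 10 of 15 alternatives (adjusted p up to 0.222) and that in ACT IL21 under 5 (up to 0.103), among them N replicate 1 or N replicate 2 left out. Ano6, a calcium-activated scramblase gene, stayed between 26.81 and 35.95 TPM. In the whole list of flippases and scramblases, 16 of 25 genes were tested. In ACT against N 1 rose, Plscr1, where 5.58% of all genes tested passed in either direction. In ACT IL21 against N 1 rose, Plscr1, and 1 fell, Atp8b4, beside 5.09% of all genes tested. In ACT IL21 against ACT 1 fell, Atp8b4, beside 1.95% of all genes tested.

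**Figure D3:**
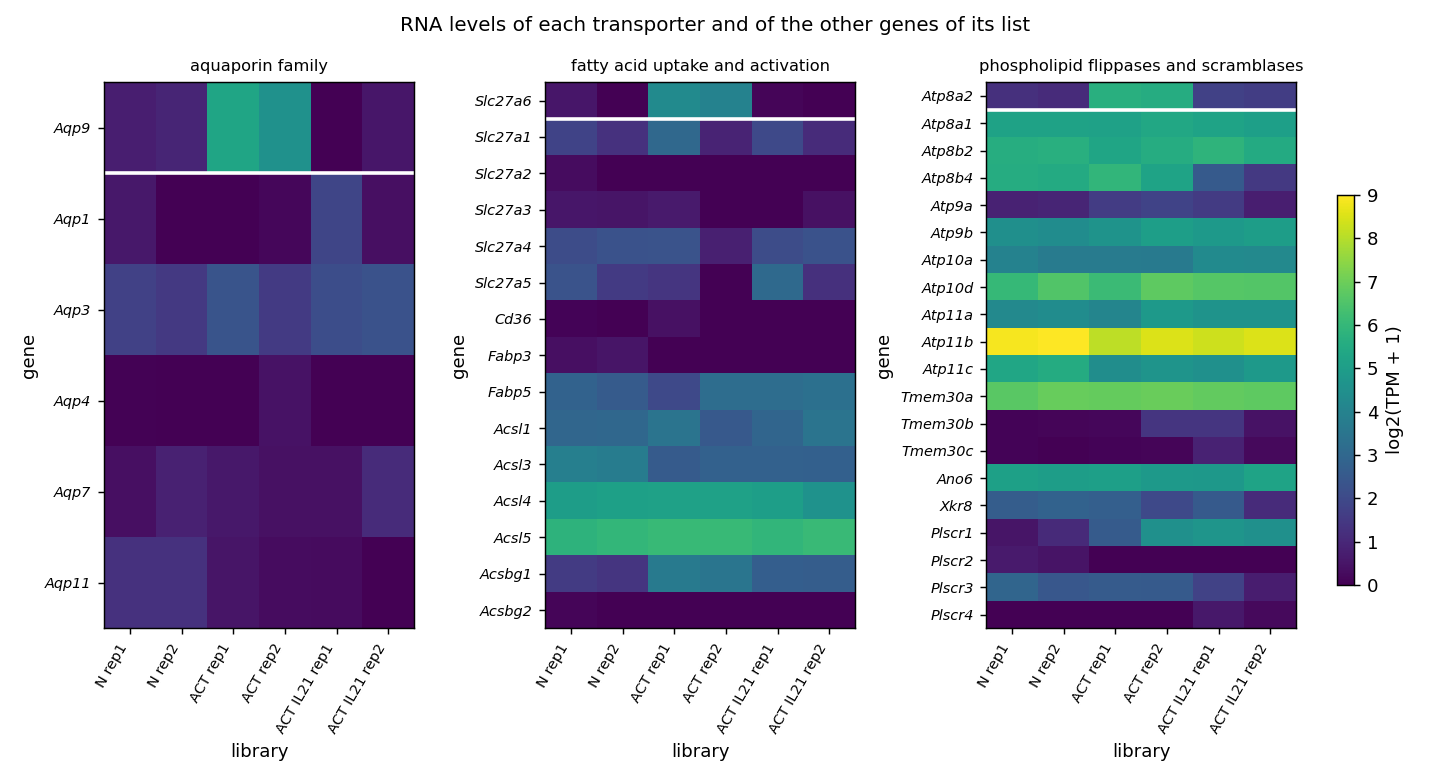
Levels on the log2(TPM + 1) scale by library for each transporter gene (top row of each panel, above the white line) and the other genes of its list that were above 0 in at least 1 library. In the ACT columns Aqp9 is the brightest row of its panel, and Slc27a6 is the brightest Slc27 row but less bright than Acsl5 and Acsl4. Atp8a2 stands among some flippase genes that are bright in all columns and others, such as Atp9a, that are dark. Atp8b4 is dark in the ACT IL21 columns.

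Of the genes that act after glycerol and fatty acids enter the cell, glycerol and triglyceride handling had 20 of 24 genes tested, and 1 fell in ACT against N, where 5.58% of all genes tested passed in either direction. This was Lipa, the lysosomal acid lipase gene, at 144.72 and 133.02 TPM in N, 77.12 and 66.94 TPM in ACT, and 116.42 and 111.67 TPM in ACT IL21 (ACT minus N, -0.94 ± 0.16 SE, limma adjusted p = 0.0128). For Lipa ACT IL21 lay below N without overlap, as in 19.9% of all genes tested. Its call ended without N replicate 1 (adjusted p = 0.125) or N replicate 2 (0.0829), and without an intensity trend (0.0811). Gyk, which encodes the glycerol kinase that traps glycerol in the cell, was at 2.63 and 3.07 TPM in N, 1.11 and 0.07 TPM in ACT, and 0.34 and 3.53 TPM in ACT IL21, and did not pass.

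Fatty acid oxidation had 22 of 25 genes tested, and 2 rose in ACT against N and 1 in ACT IL21 against N. Of all genes tested, 4.15% rose in ACT against N and 3.82% in ACT IL21 against N. Etfb, a subunit gene of the electron transfer flavoprotein, was at 33.88 and 33.73 TPM in N, 88.04 and 80.49 TPM in ACT, and 51.18 and 65.07 TPM in ACT IL21 (ACT minus N, 1.29 ± 0.19 SE, limma adjusted p = 0.00723). Decr1, an enzyme gene for unsaturated fatty acids, was at 6 and 5.81 TPM in N, 18.18 and 18.32 TPM in ACT, and 38.59 and 26.5 TPM in ACT IL21. Decr1 rose in ACT (1.48 ± 0.29 SE, adjusted p = 0.0259) and in ACT IL21 (2.26 ± 0.29, adjusted p = 0.00508) against N. Hadhb, the most abundant gene of the list, was between 126.03 and 168.22 TPM throughout. Without N replicate 1 or N replicate 2, Etfb (adjusted p = 0.0626 and 0.0645) and Decr1 in ACT (0.146 and 0.167) lost their calls, and Decr1 in ACT also lost it without either ACT library (0.0677 and 0.0632), with no filter on low values (0.0559) and with the N and ACT libraries alone (0.0723). The Decr1 call in ACT IL21 ended without ACT IL21 replicate 1 (0.0592).

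Across the 5 lists, without Aqp9, Slc27a6 and Atp8a2, 69 of 105 genes were tested. In ACT against N 4 rose and 1 fell, or 7.25%, against 5.58% of all genes tested (4.15% higher and 1.43% lower). In ACT IL21 against N 2 rose and 1 fell, or 4.35%, against 5.09% of all genes (3.82% higher and 1.26% lower). In ACT IL21 against ACT 1 fell and none rose, or 1.45%, against 1.95% of all genes (0.796% higher and 1.15% lower). These shares are near those of all genes. The list medians of ACT minus N ran from -0.27 to 0.25, beside a median of 0.02 over all genes. For ACT IL21 minus N they ran from -0.28 to 0.26 beside 0.1, and for ACT IL21 minus ACT from -0.02 to 0.34 beside 0.08. The count in ACT against N was 0 without N replicate 1 or N replicate 2 and 3 without ACT replicate 1, and the count in ACT IL21 against N was 1 without ACT IL21 replicate 1.

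Of the genes flanking or overlapping the 3 transporters, Isoc1, Nupl1 and Gm9013 alone could be tested, and none of them passed in any comparison. No neighbour of Aqp9 was tested. Gm49336, the nearest protein-coding gene to the right of Atp8a2, was not among the symbols measured. Of all genes tested, 5.58% passed in ACT against N, 5.09% in ACT IL21 against N and 1.95% in ACT IL21 against ACT. Isoc1, the nearest protein-coding gene to the right of Slc27a6, at 46.7 kb, was between 29.86 and 49.72 TPM and did not pass in any comparison (limma adjusted p of 0.385 or more). Nupl1, a nucleoporin gene on the same strand that overlaps the Atp8a2 gene in the annotation, was between 42.51 and 55.79 TPM and did not pass either (adjusted p of 0.791 or more). Gm9013, a processed pseudogene on the same strand inside the Atp8a2 gene, was at 0 TPM in both N libraries, 1.15 and 3.91 TPM in ACT, and 0 and 0.29 TPM in ACT IL21. Gm9013 was thus highest in ACT, as was Atp8a2, with both ACT libraries above the other 4. That order was shared by 9.8% of genes tested. Gm9013 reached 1 TPM in the ACT libraries alone, so it entered the tested set through the pool where it was highest. By limma its differences did not pass (1.7 for ACT minus N, adjusted p = 0.128, and -1.52 for ACT IL21 minus ACT, adjusted p = 0.24). Reads from a stretch that Atp8a2 shares with Nupl1 or Gm9013 may be divided between the genes. On either side of Aqp9, Lipc was at 0.35 TPM at most and Aldh1a2 was listed at 0 throughout. Fbn2, left of Slc27a6, reached 0.82 TPM and Shisa2, left of Atp8a2, 2.46 TPM in 1 ACT library. These neighbours were picked by position after the values of the 3 genes were known.

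Genes of like profile were sought with values that include the ACT and ACT IL21 levels by which the 3 genes were chosen, so their closeness to each other follows largely from the choice. Closeness was the root mean square difference between log2(TPM + 1) profiles over the 6 libraries, each centred on its own mean, against 10145 other genes with symbols that are not provisional. Slc27a6 was the nearest gene to Aqp9 (0.393) and Atp8a2 the fifth (0.529). Aqp9 was at rank 6 for Slc27a6 (0.393) and at rank 10 for Atp8a2 (0.529). The nearest to Slc27a6 was Itgae, the integrin alpha E gene (0.288), at 1.02 and 0.8 TPM in N, 26.38 and 18.62 TPM in ACT and 0.63 and 1.26 TPM in ACT IL21. Nedd4, a ubiquitin ligase gene, was nearest to Atp8a2 (0.171), at 2.32 and 2.25 TPM in N, 56.13 and 52.8 TPM in ACT and 3.85 and 3.33 TPM in ACT IL21. Also among the nearest 5 were Klrk1 for Aqp9, Spry2, a feedback inhibitor gene of MAPK signalling, for Slc27a6, and Rmdn2 and Atp6v0d2, a proton pump subunit gene, for Atp8a2. With 6 libraries in 3 pools, any gene high in ACT alone by a like amount is close by this measure.

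**Figure D4:**
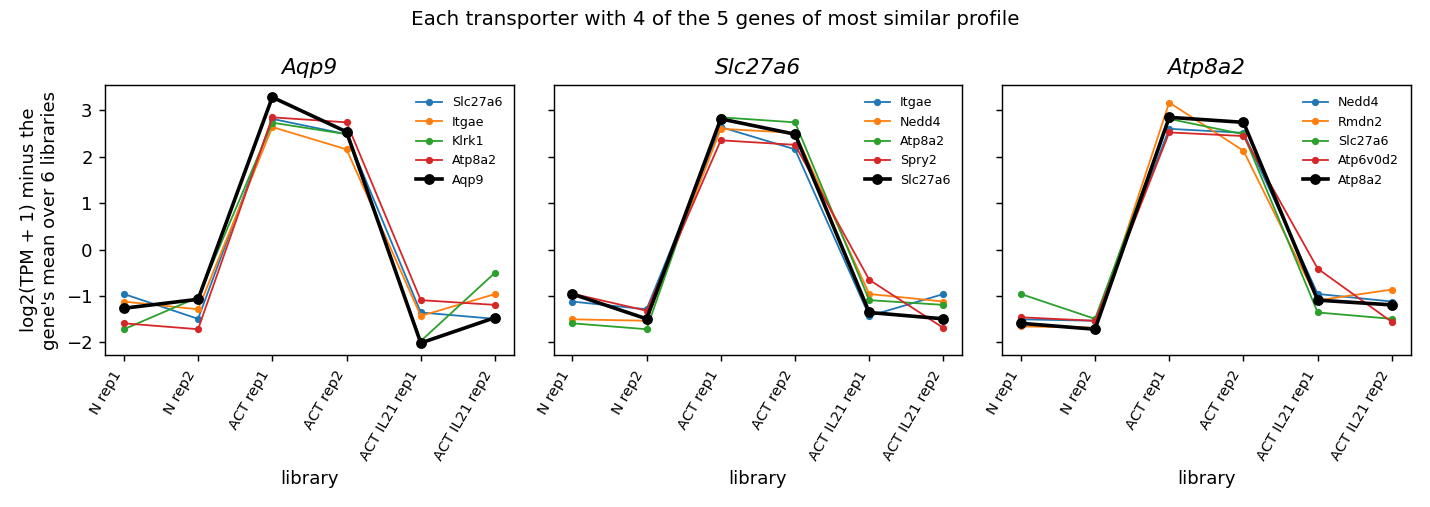
Log2(TPM + 1) minus each gene's mean over the 6 libraries, for each transporter (black) and 4 of the 5 genes of smallest root mean square difference from it (colours). All lines rise in the 2 ACT libraries and are low in the other 4, and the distances run from 0.171 for Nedd4 and Atp8a2 to 0.529 for Atp8a2 and Aqp9.

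Several lists of markers of other cells also had their highest sums in ACT, but the lists differed in how far ACT IL21 lay from N. The summed level of 13 natural killer and NKT cell genes was 56.14 and 64.45 TPM in N, 1003 and 1122 TPM in ACT and 181.5 and 226.3 TPM in ACT IL21. Of 11 tested, 5 rose in ACT against N and 6 fell in ACT IL21 against ACT by limma. In ACT IL21 against N 2 rose and 1 fell. Of all genes tested, 4.15% rose in ACT against N and 1.15% fell in ACT IL21 against ACT. In ACT IL21 against N 3.82% of all genes rose and 1.26% fell. The same shares stand beside the counts of the next 2 lists. Among the defining ones, Klrb1c was at 166.08 and 177.29 TPM and Zbtb16 at 40.05 and 27.31 TPM in ACT, while Ncr1 was at 0 and 1.06 TPM. The summed level of 8 regulatory T cell genes was 294.6 and 297.6 TPM in N, 1209 and 1216 TPM in ACT and 817 and 899.5 TPM in ACT IL21. By limma all 8 rose in ACT against N, and 4 rose and 2 fell in ACT IL21 against N. In ACT IL21 against ACT 4 fell. Nrp1 was not among them, at 39.92 and 39.32 TPM in ACT and 50.21 and 44.12 TPM in ACT IL21. Foxp3, which defines regulatory T cells, was at 22.19 and 19.38 TPM in N, 65.43 and 51.87 TPM in ACT and 1.57 and 2.69 TPM in ACT IL21. The 9 genes of innate lymphoid and innate-like type 2 and type 17 cells summed to 490.8 and 509.8 TPM in N, 853.8 and 915.9 TPM in ACT and 400.5 and 429.4 TPM in ACT IL21, with Il7r, the interleukin 7 receptor gene that T cells also express, the most abundant. Without Il7r the other 8 summed to 74.73 and 83.11 TPM in N, 402.9 and 367.2 TPM in ACT and 229.7 and 224.8 TPM in ACT IL21. By limma 7 of the 9 rose in ACT against N, 4 rose and 1 fell in ACT IL21 against N, and 2 fell in ACT IL21 against ACT. The part of such cells in the levels of the 3 transporters was not tested.

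Aqp9 is also expressed by human neutrophils. Of the myeloid, neutrophil and dendritic cell genes, S100a8, S100a9, Ly6g and Cd14 were listed at 0 in all 6 libraries. Csf3r was at 0.07 and 0.08 TPM in N and at 0 in the others, Mpo reached 0.39 TPM in 1 N library, and Itgam was at 2.35 and 1.7 TPM in N, 1.24 and 0.75 TPM in ACT and 0.95 and 0.67 TPM in ACT IL21. The summed level of 12 myeloid, neutrophil and dendritic cell genes was 32.24 and 38.8 TPM in N, 54.24 and 69.59 TPM in ACT and 49.87 and 55.35 TPM in ACT IL21, most of it from Cst3, at 68.3 and 51.83 TPM in ACT. The part of such cells in the Aqp9 level was not tested. B cell genes summed to 4.76 and 6.4 TPM in N, 20.35 and 20.71 TPM in ACT and 8.45 and 8.58 TPM in ACT IL21, most of it from Cd74, with Pax5 listed at 0 throughout. Erythroid and platelet genes summed to 5.93 to 95.71 TPM with overlap between all pools. The CD8 T cell genes summed to 19.03 and 27.04 TPM in N and 3.41 to 9.88 TPM elsewhere. Nearly all of it came from Cd8b1, with Cd8a at 0.36 TPM at most. T cell genes were high in every library, at sums of 4867 to 7774 TPM, and Cd4 was between 236.07 and 566.54 TPM.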

How the data were processed

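Polyadenylated RNA of 6 libraries was amplified with the NuGEN Ovation kit, per the labels' protocols. The authors deposited TPM per gene, 1 column per library, and per the submitters' processing notes Trimmomatic, Bowtie, RSEM and the build GRCm38 were used, with no version named. For annotation, strand setting and read depth the status is: not given in the sources used here. By its design RSEM divides shared reads by estimation, so values of paralogs and overlapping genes are uncertain. TPM keeps no depth, so no counting interval is given.

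The 139 entries with a repeated symbol were summed. Genes at 1 TPM or more in at least 2 libraries (13311) were transformed to log2(TPM + 1) and fitted in R 4.3.3 by limma 3.58.1, with pool as the only term, an intensity trend and two-sided tests, and p-values were adjusted by Benjamini-Hochberg over all genes of a comparison at a threshold of 0.05. All 6 libraries entered 1 fit, with 3 residual and 4.841 prior degrees of freedom, and the script was tested on simulated data. Differences on this scale understate those of low genes. The genes and lists were chosen with earlier results of these data known. Named from each list were the most abundant gene and, per comparison, up to 4 past the threshold; those needed to describe a family, neighbours and markers were named after their values were seen. Sequences are from RefSeq (GRCm38.p6), and gene positions from GENCODE M21. Alternatives changed the pseudocount, filter, scaling, trend, libraries and a replicate term. A gene that the rule on similar profiles names is not reported here.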

Additional observations from a re-analysis of the deposited data

How the results depend on the processing

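Genes past the threshold numbered 743 in ACT against N, 677 in ACT IL21 against N and 259 in ACT IL21 against ACT. Without a filter on low values other than leaving out genes listed at 0 in every library, they numbered 469, 410 and 124, and list genes past the threshold in ACT against N numbered 2 in place of 5. With the 4 libraries of the compared pools alone, 417 passed in ACT against N and 92 in ACT IL21 against ACT, and 2 list genes passed in ACT against N. Without an intensity trend 3 list genes passed there. Leaving out 1 library in turn gave 260 to 678, 169 to 903 and 32 to 202 genes in the 3 comparisons, and 0 to 5 and 1 to 4 list genes in the comparisons with N, against 1 each time in ACT IL21 against ACT. The lowest counts came without N replicate 1 (260), without ACT IL21 replicate 2 (169) and without ACT IL21 replicate 2 (32).

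The replicate block, a term for the replicate number, gave 784, 732 and 284 genes. Deviations of same-numbered libraries from their pool means correlated at 0.21 for N and ACT, -0.004 for N and ACT IL21 and 0.001 for ACT and ACT IL21. The labels do not state whether same-numbered libraries share anything beyond the number, and these values do not settle it. With the replicate block Atp11b passed limma's test in ACT (adjusted p = 0.0262) and in ACT IL21 (0.049) against N. Atp11b also passed in ACT against N with quantile normalization (0.0438) and without ACT replicate 2 (0.0343). Quantile normalization moved the median of all genes in ACT IL21 minus N from 0.1 to -0.05.

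Aqp9, Slc27a6 and Atp8a2 kept the sign of ACT minus N and of ACT IL21 minus ACT under each alternative that gave a value. The choice and the distance of ACT from the other libraries fixed these signs in advance, so nothing is read from them. The size depended on the pseudocount: ACT IL21 minus ACT of Aqp9 was -6.96 at 0.1 and -2.72 at 5, of Slc27a6 -6.89 and -2.1, and of Atp8a2 -4.38 and -2.89. Without either ACT library, Aqp9 and Slc27a6 were not at 1 TPM in enough libraries to be fitted. Unknown depth limits the values under 1 TPM, on which the comparison of N and ACT IL21 rests for Aqp9 and Slc27a6. For Atp8a2 that comparison rests on values of 1.17 to 2.35 TPM.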
